A study of Mus musculus with 8 samples.

Results

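Pulmonary surfactant and the organelle that stores it were followed through 8 genes: Sftpa1, Sftpb, Sftpc and Sftpd, which encode surfactant proteins A, B, C and D, and Abca3, Lamp3, Napsa and Lyz2, whose products sit in or feed the lamellar body. The genes were taken by name, as the surfactant proteins and the best known lamellar body proteins, from the 19938 genes measured. Each had exactly 1 probe set on the array. Expression was measured in Epcam+ cells sorted with magnetic beads from mouse lungs at stage E18.5, with 4 control arrays and 4 knockout arrays. The knockout group, labelled Mst1/2 CKO, is described as deleted for both Hippo kinases, Mst1 and Mst2, by ShhCre, a Cre recombinase expressed from the Shh locus that is active in epithelial progenitors of the developing lung. The sources used here do not give the strain, the alleles that control embryos carried, or whether 1 array holds RNA of 1 embryo. The p-values therefore measure only the spread between these arrays.

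Surfactant is a film of phospholipid and protein that lowers surface tension in the air spaces, and alveolar type 2 cells assemble, store and secrete it. Its lipid, mostly phosphatidylcholine, is pumped into lamellar bodies, which are lysosome-related organelles, and packed there with the small hydrophobic proteins B and C, both of which are cut from larger precursors. Proteins A and D are collectins, soluble lectins of innate defence, and A also shapes the secreted film. In the mouse, these genes rise steeply late in gestation, so that lungs at this stage are close to ready for air.

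Values are log2 expression as deposited, differences are knockout minus control with the standard error (SE) of limma's moderated test, and group means carry the standard deviation (SD) over 4 arrays. A gene is called where its p-value, adjusted over all 19938 genes (Benjamini-Hochberg), is under 0.05. Stk4, which encodes Mst1, fell from 9.66 ± 0.12 to 9.36 ± 0.10 (SD, n = 4 each), a difference of -0.30 (SE 0.076, adjusted p = 0.0188). Its probe set may lie outside the deleted part of the gene, so it does not settle how complete the deletion was, and the call was lost in 3 of 19 alternative settings. These were without knockout replicate 3 (difference -0.28, adjusted p = 0.0592), without knockout replicates 1 and 4 together (-0.29, adjusted p = 0.0703) and with the mean of mesenchymal markers as a covariate (-0.20, adjusted p = 0.268). Stk3, the gene of Mst2, was not analysed here. Epcam, the sorting marker, stood at 10.06 ± 0.15 in control and 10.07 ± 0.17 in knockout arrays (SD, n = 4 each).

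Promoter sequence is shown for 4 of the 7 genes that fell, so that the bases before genes that fell can be set side by side. Each line gives the 250 bases before the transcription start from RefSeq (assembly GRCm38.p6), 5′ to 3′ on the gene's own strand. The table used held windows for 5 of the 8 genes, the other one being Lyz2. Capitals mark every match, on either strand, to the 9 short motifs searched: CTCAAG or CAAGTG for Nkx2-1, GGAATG for Tead proteins, TGTTTAC for Fox proteins, TTGCNNA for C/EBP proteins, AGATAA for Gata proteins, TGANTCA for AP-1, CACGTG for the E-box read by Mitf and Tfeb, and TATAAA for the TATA box. The windows are chr14:41131538-41131787 (plus strand) for Sftpa1, chr6:72304360-72304609 (plus) for Sftpb, chr17:24351773-24352022 (plus) for Abca3 and chr16:19706366-19706615 (minus) for Lamp3.
Sftpa1: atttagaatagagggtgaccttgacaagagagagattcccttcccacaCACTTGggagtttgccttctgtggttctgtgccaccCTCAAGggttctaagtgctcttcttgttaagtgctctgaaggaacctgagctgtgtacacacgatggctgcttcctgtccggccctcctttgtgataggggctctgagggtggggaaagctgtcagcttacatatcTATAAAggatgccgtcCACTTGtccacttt
Sftpb: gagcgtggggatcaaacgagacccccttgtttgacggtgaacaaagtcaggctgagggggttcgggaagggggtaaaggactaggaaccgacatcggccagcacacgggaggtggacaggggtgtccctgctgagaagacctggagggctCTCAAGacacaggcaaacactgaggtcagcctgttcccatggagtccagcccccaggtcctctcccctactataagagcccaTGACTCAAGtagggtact
Abca3: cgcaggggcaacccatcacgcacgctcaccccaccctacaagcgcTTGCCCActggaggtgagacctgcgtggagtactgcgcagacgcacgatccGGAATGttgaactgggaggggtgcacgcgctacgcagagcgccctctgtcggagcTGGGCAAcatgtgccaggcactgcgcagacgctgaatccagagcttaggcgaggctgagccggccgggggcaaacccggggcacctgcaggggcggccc
Lamp3: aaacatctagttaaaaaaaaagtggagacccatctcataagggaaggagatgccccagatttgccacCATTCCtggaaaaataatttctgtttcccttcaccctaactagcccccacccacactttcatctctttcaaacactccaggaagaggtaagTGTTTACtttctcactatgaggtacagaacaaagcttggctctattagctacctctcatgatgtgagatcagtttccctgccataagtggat

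The 5 windows did not share a single set of these letters. Nkx2-1 is the transcription factor that specifies lung epithelium and switches on surfactant genes. Its letters were found in the windows of Sftpa1, Sftpb and Lyz2. In Sftpa1, CAAGTG lay on the opposite strand 202 and 14 bases before the start and CTCAAG lay 166 bases before it, with TATAAA at 30. In Sftpb, CTCAAG lay 100 and 15 bases before the start, the nearer copy sharing letters with an AP-1 match at 18. The Tead letters, those of the factors through which the Hippo pathway's effectors reach DNA, were found in Abca3 (154 bases before the start) and Lamp3 (183, opposite strand). Abca3 also held TTGCNNA at 205 and, on the opposite strand, at 99. Lamp3 held TGTTTAC at 92, and Lyz2 held CAAGTG at 129 and TTGCNNA at 90. Such short motifs are common. Of 32851 windows of the same length, 13.3% held CTCAAG, 11.6% CAAGTG, 12.6% GGAATG, 32.8% TTGCNNA, 12.4% TATAAA, 6.75% TGANTCA and 3.17% TGTTTAC. The Gata letters AGATAA, held by 9.99% of windows, and CACGTG, held by 6.02%, were in none of the 5. A match is a description of letters and not a measured binding site.

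Across the group, 7 of the 8 genes fell in the knockout and Sftpc did not pass the test. Over all genes 18.8% were called and 10.2% were called lower. In the same 7 genes every knockout value lay below every control value, a pattern shown by 11.9% of all genes. The median difference over the 8 genes was -0.83, against -0.02 over all genes, and the 7 called differences ran from -1.35 for Lamp3 to -0.69 for Sftpd. The median size of a called difference over the whole array was 0.41. Earlier results of these data were known when the 8 genes were chosen, so the count describes them and is no independent evidence of a direction. In RNA from sorted but mixed epithelium, fewer type 2 cells and less of each RNA per cell cannot be told apart.

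**Figure D1:**
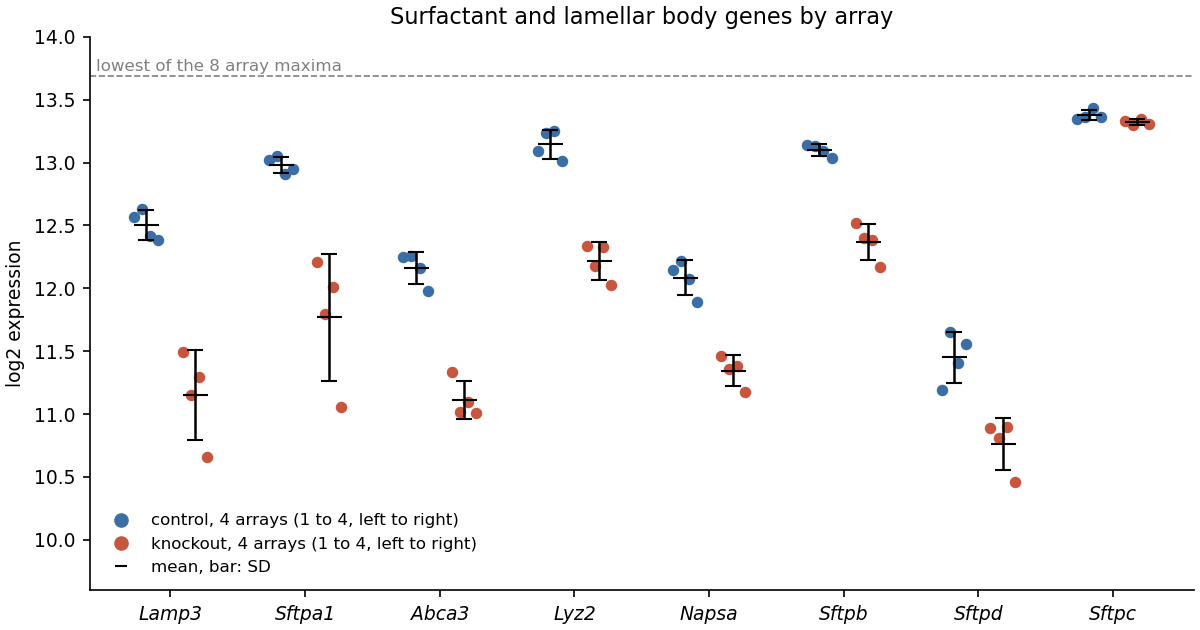
Log2 expression (vertical axis) of the 8 genes in each array, control in blue and knockout in red, replicates 1 to 4 from left to right; horizontal bars are means and vertical bars SD (n = 4). The colours separate completely for 7 genes and touch only for Sftpc, which lies close under the dashed line at 13.69, the lowest of the 8 arrays' highest values.

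Surfactant protein B is the hydrophobic protein without which lamellar bodies do not form and newborn mice cannot breathe. In control replicates 1 to 4 Sftpb read 13.14, 13.13, 13.10 and 13.03, and in knockout replicates 1 to 4 it read 12.52, 12.40, 12.39 and 12.17. The groups were well apart and each was tight, at 13.10 ± 0.048 and 12.37 ± 0.14 (SD, n = 4). The difference of -0.73 (SE 0.075) is a 1.66-fold fall, with an adjusted p of 7.79e-05 by limma.

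Surfactant protein C, the other hydrophobic protein, is made by type 2 cells and their precursors and is the classic marker of that lineage. In control replicates 1 to 4 Sftpc read 13.35, 13.37, 13.44 and 13.36. In knockout replicates 1 to 4 it read 13.33, 13.30, 13.35 and 13.31. The groups just touched, knockout replicate 3 lying above control replicate 1. The difference was -0.05 (SE 0.051, 95% interval -0.17 to 0.06, adjusted p = 0.553 by limma), and an exact two-sided permutation test of the 8 values gave p = 0.0571, where the smallest p this design allows is 0.0286. The interval leaves out a fall the size of that of any other gene in the group.

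Sftpc was also close to the top of the measured range. Its values lay 0.27 to 0.64 below the highest value of the same array, and 4 of the 19938 genes had a higher mean. Over 19 genes with a mean of at least 13 in control or knockout arrays, a set chosen after the values were seen, 8 were called lower, 1 was called higher and 10 were not called. All 8 called lower had a knockout mean under 13, so they entered the set only through their control arrays. They included Sftpb, Lyz2 and Slc34a2, a phosphate transporter of type 2 cells, which fell from 13.17 ± 0.059 to 12.34 ± 0.26 (SD, n = 4). Of 9 genes with a mean of at least 13 over all arrays, Sftpc among them, 0 were called lower and 1 was called higher. Both filters depend on the change itself, so neither count shows how well a fall is recorded at this level. The signal of one probe set does not show how close another is to saturation. How much of a fall in Sftpc the array could have recorded from its control level was not tested, so a compressed difference cannot be told apart from a steady transcript.

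**Figure D2:**
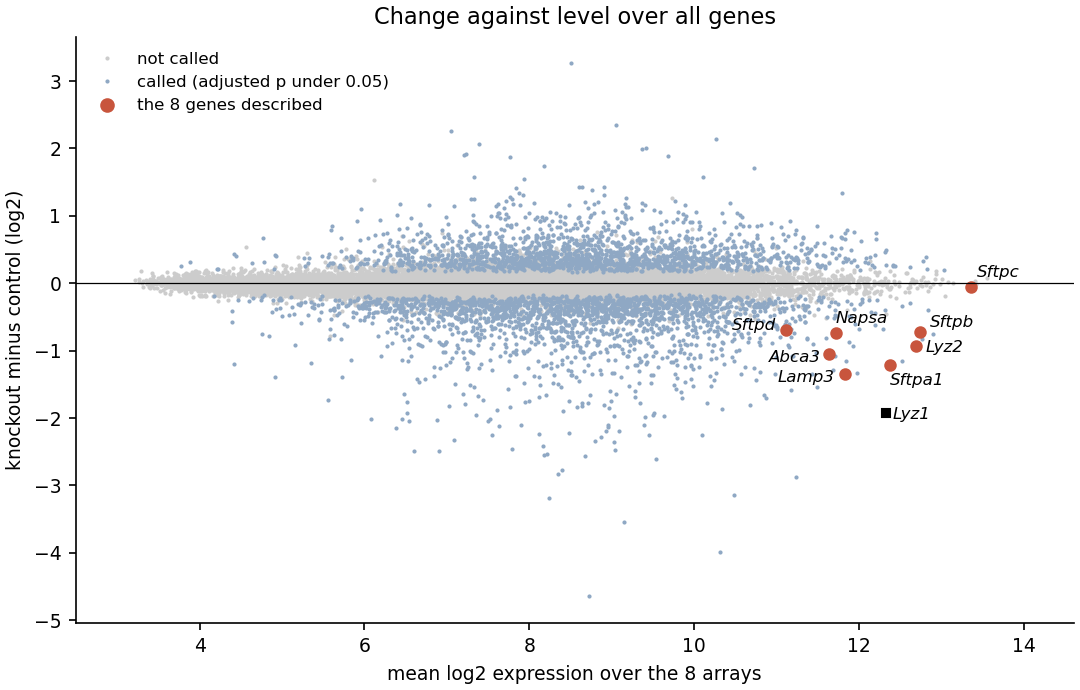
Difference knockout minus control (log2, vertical axis) against the mean log2 expression over the 8 arrays (horizontal axis) for 19938 genes, called genes in blue, others in grey, the 8 genes in red and Lyz1 as a black square. The 8 genes lie at the bright end of the array, 7 of them below zero, with Sftpc at the far right next to the line.

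The collectins A and D fell to different degrees. In control replicates 1 to 4 Sftpa1 read 13.02, 13.05, 12.91 and 12.95. In knockout replicates 1 to 4 it read 12.21, 11.79, 12.01 and 11.05. The control arrays were nearly level, while the knockout arrays spread widely with replicate 4 lowest. The means were 12.98 ± 0.064 and 11.77 ± 0.51 (SD, n = 4), a 2.32-fold fall (difference -1.22, SE 0.20, adjusted p = 0.00147 by limma). Without knockout replicate 4 the difference was -0.98 (adjusted p = 6.91e-05).

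In control replicates 1 to 4 Sftpd read 11.19, 11.65, 11.41 and 11.56, and in knockout replicates 1 to 4 it read 10.89, 10.81, 10.90 and 10.46. The lowest control array stood above the highest knockout array by less than the range inside either group. The 1.61-fold fall (11.45 ± 0.20 to 10.76 ± 0.21, SD, n = 4, difference -0.69, SE 0.12) had an adjusted p of 0.00221 by limma.

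Abca3 is the transporter in the limiting membrane of the lamellar body that loads it with phospholipid. Control replicates 1 to 4 read 12.25, 12.26, 12.16 and 11.98, and knockout replicates 1 to 4 read 11.33, 11.01, 11.09 and 11.01. The knockout arrays were close together and far under the lowest control array. The fall was 2.07-fold (12.16 ± 0.13 to 11.11 ± 0.15, SD, n = 4), with a difference of -1.05 (SE 0.090) and an adjusted p of 2.82e-05 by limma.

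Lamp3 encodes a lysosome-associated glycoprotein of the same membrane, and in other tissues marks mature dendritic cells. Control replicates 1 to 4 read 12.57, 12.63, 12.42 and 12.38, and knockout replicates 1 to 4 read 11.49, 11.15, 11.30 and 10.66. The groups were apart by more than the range inside either one, and knockout replicate 4 was again lowest. At 2.55-fold (12.50 ± 0.12 to 11.15 ± 0.35, SD, n = 4, difference -1.35, SE 0.15, adjusted p = 1.23e-04 by limma) this was the largest fall of the 8 genes.

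Napsa encodes napsin A, an aspartic protease that helps cut the precursor of protein B. Control replicates 1 to 4 read 12.15, 12.22, 12.08 and 11.89, and knockout replicates 1 to 4 read 11.47, 11.36, 11.38 and 11.17. The groups did not overlap. The means were 12.08 ± 0.14 and 11.34 ± 0.12 (SD, n = 4), a 1.67-fold fall (difference -0.74, SE 0.085, adjusted p = 1.60e-04 by limma).

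Lyz2 encodes lysozyme M, which type 2 cells store in lamellar bodies and which macrophages also make. Control replicates 1 to 4 read 13.09, 13.23, 13.25 and 13.01, and knockout replicates 1 to 4 read 12.34, 12.18, 12.33 and 12.03. No knockout array came near a control array. The fall was 1.90-fold (13.15 ± 0.12 to 12.22 ± 0.15, SD, n = 4, difference -0.93, SE 0.086, adjusted p = 4.69e-05 by limma). Because macrophages express Lyz2, leukocyte markers are given beside it. Of 18 measured leukocyte markers 2 rose and none fell by limma (4 higher and 0 lower at an unadjusted p under 0.05), 14 had a difference above zero, and their mean per array ran from 8.76 to 9.65 in control and from 9.25 to 9.62 in knockout arrays. With that mean as a covariate, the difference of Lyz2 was -0.94 (adjusted p = 1.44e-04).

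The measured falls were unequal. Sftpb, Lyz2 and Sftpa1 had control means of 13.10, 13.15 and 12.98, closer to the top of the range than those of Abca3, Lamp3 and Napsa. Whether different probe sets record a fall to the same degree was not tested, so the comparison is one of signals. The within-array difference of each of the 28 pairs of genes was compared between the groups by an exact two-sided permutation test over 70 assignments, adjusted over the 28 pairs. In 18 pairs it changed with the smallest p the design allows (0.0286, adjusted p = 0.0444). All 7 pairs with Sftpc were among them, the other gene falling more by between 0.63 (Sftpd) and 1.29 (Lamp3) on the log2 scale. So were 11 of the other 21 pairs. The adjusted p rests on how many of the 28 pairs reach the smallest p, the 7 with Sftpc included. The 11 pairs passed only in this joint adjustment and were not adjusted on their own. Their passing depends on the pairs with Sftpc and does not stand by itself. Lamp3 had fallen more than Sftpb by a change of -0.62, than Napsa by -0.61 and than Sftpd by -0.66. Sftpa1 had fallen more than Sftpb (-0.49), and Abca3 more than Sftpb (-0.32). Lyz2 differed from Sftpb by only -0.20 and passed in the same joint adjustment.

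Other pairs could not be separated. Napsa and Sftpb, a protease and its substrate, differed in their change by -0.01 (exact permutation, adjusted p = 0.83), and Sftpb and Sftpd by -0.04. Lamp3 and Sftpa1 differed by -0.13 (adjusted p = 0.209, exact permutation), and Abca3 and Lyz2 by -0.12 (adjusted p = 0.233, exact permutation). A p above the threshold does not show equal falls. In order of their difference the genes ran Lamp3, Sftpa1, Abca3, Lyz2, Napsa, Sftpb, Sftpd and Sftpc. Of these neighbouring genes, Lamp3 and Sftpa1, Sftpa1 and Abca3, Abca3 and Lyz2, Lyz2 and Napsa, Napsa and Sftpb, and Sftpb and Sftpd were not separated, and only the step from Sftpd to Sftpc was.

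**Figure D3:**
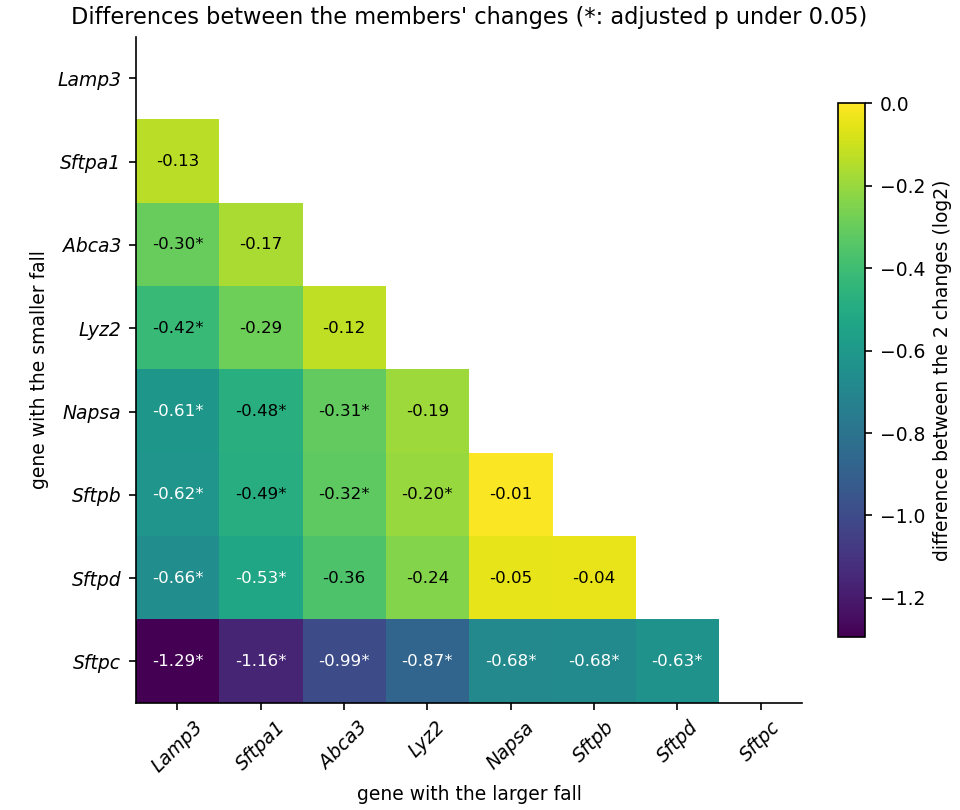
Difference between the changes of each pair of genes (log2), the gene with the larger fall on the horizontal axis and the gene with the smaller fall on the vertical axis; an asterisk marks an adjusted p under 0.05 (exact permutation test, 28 pairs). The bottom row, Sftpc, is marked throughout, from -1.29 to -0.63. In the other rows the cells next to the diagonal run from -0.19 to -0.01 and are unmarked.

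The knockout arrays were not alike. Averaged over the 7 genes that fell, replicates 1 to 4 lay at -0.74, -0.96, -0.86 and -1.27 from the control mean on the log2 scale. The control arrays lay between -0.09 and 0.11. Knockout replicate 4 was the lowest knockout array in 7 of the 8 genes, all but Sftpc, and knockout replicate 1 was the highest in 6. The mean of 16 mesenchymal markers was highest in knockout replicate 4 as well, at 8.99, against 8.50 in knockout replicate 1, and from 8.26 to 8.68 in control arrays. Of those markers 4 rose and none fell by limma, and of 12 endothelial markers 6 rose and none fell (9 higher and 0 lower in each list at an unadjusted p under 0.05), with means per array of 9.02 to 9.34 in control and 9.40 to 9.55 in knockout arrays. Of 18 general epithelial genes 4 rose and 2 fell, and their mean was 10.60 ± 0.072 in control and 10.64 ± 0.046 in knockout arrays (SD, n = 4). Of 10 erythroid markers 3 were measured, and none was called by limma (1 at an unadjusted p under 0.05). With the mesenchymal mean as a covariate all 7 genes were still called, with differences from -1.08 to -0.57 and adjusted p up to 0.0368. With knockout replicates 1 and 4 both left out, differences of the 7 genes ran from -1.27 for Lamp3 to -0.60 for Sftpd, and all were called.

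Among relatives of the 8 genes, listed by protein family, some rose, some fell and others were not called. Of 5 other collectins, Mbl1 fell by 1.38 (SE 0.084) and Colec12 rose by 0.59 (SE 0.11, call lost with the mesenchymal covariate, 0.42, adjusted p = 0.0857), and 3 were not called. No other saposin-domain gene was called by limma out of 4 (1 at an unadjusted p under 0.05), the widest values being -0.21 for Smpd1 and 0.11 for Psapl1. Sftpc belongs to the BRICHOS proteins, of which 8 others were measured. Of these 2 rose, with Itm2a at 1.13 (SE 0.14), and 3 fell, with Gkn3 at -1.50 (SE 0.15). Of 15 other lipid transporters of the ABCA family 3 rose and 3 fell, with Abca5 at 1.05 (SE 0.10) and Abca17 at -0.82 (SE 0.094) the widest. Among 4 other Lamp proteins, Lamp2 fell (-0.28, SE 0.056, call lost with the mesenchymal covariate, -0.22, adjusted p = 0.0965), while Cd68, also a macrophage gene, stood at 0.12 and was not called. None of 5 other aspartic proteases was called by limma (3 at an unadjusted p under 0.05), the widest being Ctse at -0.27 and Bace2 at 0.22. Each passed in 3 of 18 alternatives, Ctse without knockout replicate 4 (-0.32, adjusted p = 0.0432) and Bace2 without control replicate 4 (0.27, adjusted p = 0.0315) or knockout replicate 1 (0.27, adjusted p = 0.0402) among them. Some of the relatives counted here were dim, with control means under the lowest array median of 7.21. Among them were Abca16 (4.10), Abca6 (5.09), Abca13 (5.59, called lower), Tnmd (5.70), Lamp5 (5.74), Bace2 (6.12) and Ctse (6.29). A missing call at such levels does not show a steady RNA.

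Among lysozymes, Lyz1, the tandem neighbour and near copy of Lyz2, fell with it. In control replicates 1 to 4 Lyz1 read 13.19, 13.33, 13.37 and 13.24, and in knockout replicates 1 to 4 it read 12.38, 11.25, 11.28 and 10.54. All knockout arrays were below all control arrays, but knockout replicate 1 was far above the other three. The fall was 3.79-fold (13.28 ± 0.082 to 11.36 ± 0.76, SD, n = 4, difference -1.92, SE 0.29, adjusted p = 9.30e-04 by limma). The signal of Lyz1 minus that of Lyz2 within an array was 0.10, 0.09, 0.13 and 0.23 over control replicates 1 to 4. Over knockout replicates 1 to 4 it was 0.04, -0.93, -1.05 and -1.48. It thus lay below every control value in all knockout arrays, but only slightly in replicate 1. This comparison was chosen after the values were seen, so no p-value is given for it. How far the probes of each copy also catch the other is unknown here, so both values are uncertain. The remaining 4 genes of the lysozyme list were not called, Lyzl6 among them at -0.07. Their control means were 4.26 (Lyzl1), 4.53 (Lyzl6), 6.43 (Lyzl4) and 7.07 (Spaca3), under the lowest array median of 7.21. At such levels a missing call does not show a steady RNA. A relative that was not on the list, 9530003J23Rik, fell by 0.83 (SE 0.080).

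The chromosomal neighbours were read from the RefSeq gene order, taking the nearest 2 measured genes on each side of each of the 8 genes. Of 29 neighbours outside the group 14 fell and 1 rose, Myh14 beside Napsa by 0.39 (SE 0.066). Over all genes 10.2% were called lower. Some neighbours are relatives of the gene they stand beside, so the count is a description. Yeats4, near Lyz2, was counted among the 14 (-0.20, SE 0.061) but lost its call in 14 of 19 alternatives. The nearest measured genes are not always adjacent. On one side of Sftpd, 83 and 86 RefSeq genes lay between it and Ang5 and Ang6. Ang6, counted among the 14, fell by 0.33 (SE 0.077), a call lost with the mesenchymal covariate (-0.27, adjusted p = 0.151). Sftpa1, Mbl1 and Sftpd follow each other on chromosome 14, and all 3 fell, as did Mat1a on the far side of Sftpa1 (-0.53, SE 0.15). Mat1a lost its call in 5 of 19 alternatives, among them without control replicate 1, 2 or 4 (-0.54 to -0.47) and with the mesenchymal covariate (-0.28, adjusted p = 0.397). Abca3 stood between Abca17 and D330041H03Rik, both lower, at -0.82 and -0.71. Lyz2 stood between Lyz1 and 9530003J23Rik, the lysozyme relative named before, which RefSeq also lists as Lyzf1.

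Around Sftpc, the gene itself was not called while 3 of the 4 genes beside it fell. Lgi3, on one side, fell from 12.63 ± 0.14 to 11.31 ± 0.33 (SD, n = 4), a difference of -1.33 (SE 0.14), and Reep4 beyond it fell by 0.86 (SE 0.14). Bmp1, a metalloprotease on the other side, fell by 0.54 (SE 0.079). Beside Lamp3, 2 genes annotated as olfactory receptors, Olfr170 and Olfr171, had differences of -2.04 (SE 0.21) and -2.01 (SE 0.19), both wider than that of Lamp3 from control means of 7.56 and 7.09. Which RNA these probe sets catch could not be examined here, so both values are uncertain as measures of these genes. Beside Sftpb, Atoh8 fell (-0.37, SE 0.087), a call lost with the mesenchymal covariate (-0.22, adjusted p = 0.221), and Usp39 did not pass (0.12) except after quantile normalization (0.16, adjusted p = 0.0312).

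**Figure D4:**
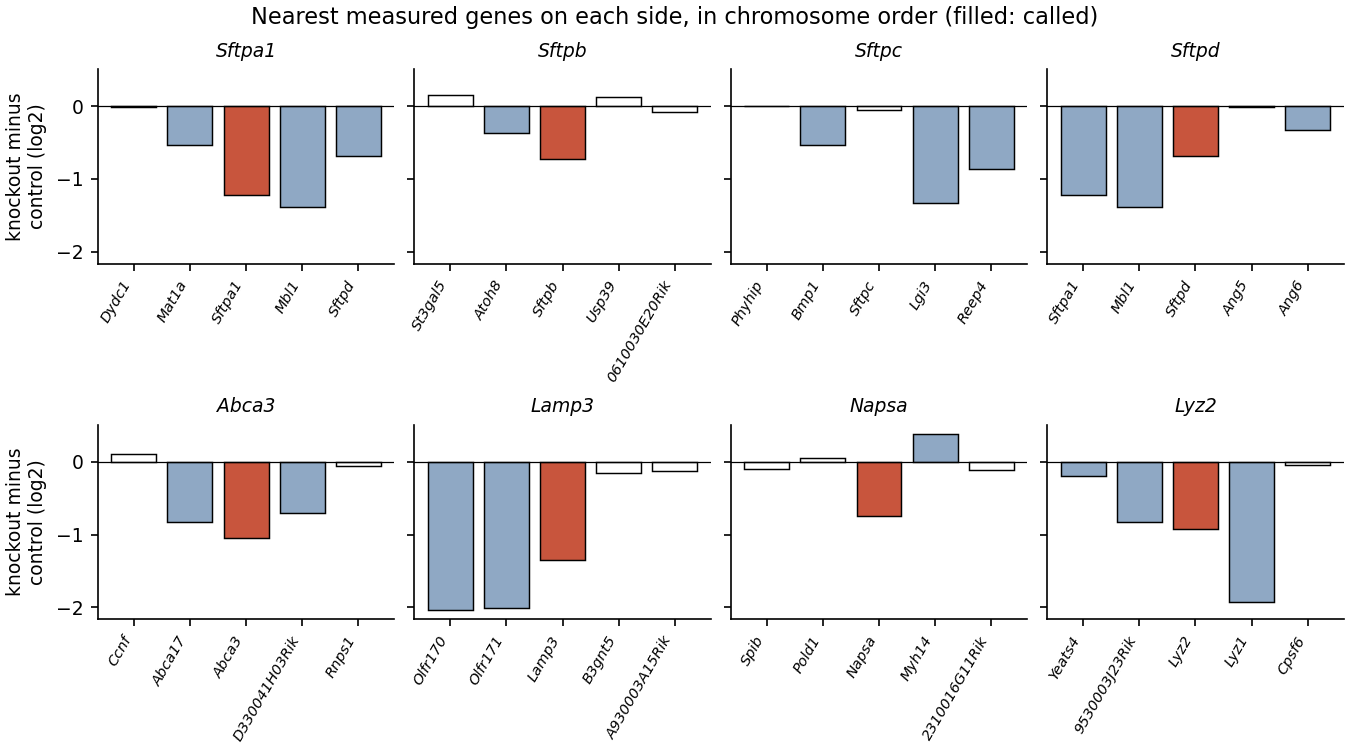
Difference knockout minus control (log2, vertical axis) of each of the 8 genes (red where called) and the nearest 2 measured genes on each side (blue where called, white where not), in chromosome order, with distance not to scale. The bars around Sftpc point down at Bmp1, Lgi3 and Reep4 while its own is near zero.

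Genes that act around the 8 were taken from 6 lists written by hand with earlier results of these data known, leaving out the 8 themselves. The share of all genes called lower, 10.2%, stands beside each count. The first list held 12 peptidases and other genes that might process surfactant proteins, and a place on it does not show such a role. Of these 4 fell and none rose by limma (1 was higher at an unadjusted p under 0.05). The median difference was -0.16, against -0.02 over all genes. The 4 that fell were the cell-surface peptidases Dpp4 (-1.42, SE 0.16) and Cpm (-0.82, SE 0.10) and the lysosomal cathepsins Ctsb (-0.34, SE 0.066) and Ctsz (-0.34, SE 0.096). Ctsh, the cathepsin known to cut the precursors of proteins B and C, had a difference of -0.22 and was not called (adjusted p = 0.202 by limma). Ctse had a difference of -0.27 (adjusted p = 0.0698). The call for Ctsz was lost in 8 of 19 alternative settings, among them those without control replicate 1, 2 or 3 or knockout replicate 3 or 4, and with the mesenchymal covariate Ctsb lost its call as well (-0.30, adjusted p = 0.0679), leaving 2 of the 12 genes called.

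Lamellar body building and exocytosis moved in part. Of 37 measured genes of 39 listed, 11 fell and 3 rose, with a median of -0.02. The widest falls were in docking and release of secretory granules: the small GTPases Rab27b (-2.22, SE 0.18) and Rab27a (-1.97, SE 0.22) and their effector Sytl2 (-1.24, SE 0.12). Mlph, another Rab27 effector, fell by 0.85 (SE 0.096). A further member of the effector family, Sytl5, rose by 1.34 (SE 0.070), from 7.21 ± 0.12 to 8.54 ± 0.052 (SD, n = 4). The kinase Lrrk2, which sits on lamellar bodies, fell by 0.98 (SE 0.089). Of 12 subunits of the trafficking complexes that build lysosome-related organelles (the Hps proteins, AP-3 and BLOC-1), 11 were not called and Hps5 fell (-0.26, SE 0.078), a call lost in 11 of 19 alternatives, and their median was 0.03. Anxa7, an annexin of membrane fusion, was at 0.25 (adjusted p = 0.0704 by limma) and passed without control replicate 4 (0.33, adjusted p = 0.0116) and without knockout replicate 4 (0.30, adjusted p = 0.0303).

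In lipid supply, of 33 measured genes of 36 listed, 24 fell and none rose by limma (1 was higher at an unadjusted p under 0.05), with a median of -0.55. The widest falls were the secreted phospholipase Pla2g1b (-2.25, SE 0.14), the fatty acid transporter Cd36 (-1.71, SE 0.20), the fatty acid binding protein Fabp5 (-1.58, SE 0.12) and Gpam (-1.43, SE 0.10), which starts glycerolipid synthesis. Lpcat1, the acyltransferase that makes surfactant phosphatidylcholine, fell by 0.92 (SE 0.12). Stard10, a phospholipid transfer protein, had a difference of -0.19 and did not pass (adjusted p = 0.0711 by limma). Cd36 is also a gene of macrophages and endothelium.

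Of 11 genes of surfactant turnover and sensing 5 fell and none rose by limma (0 were higher at an unadjusted p under 0.05), with a median of -0.21. Adgrf5, the receptor by which type 2 cells sense the surfactant pool, fell by 0.74 (SE 0.075). Itih4 fell by 1.21 (SE 0.12) and Csf2, the growth factor that drives surfactant clearance by macrophages, by 1.07 (SE 0.17). The fourth largest, Napepld (-0.26, SE 0.077), lost its call in 10 of 19 alternatives, and the count of 5 fell to 3 in several of them, among them those without control replicate 1 and without knockout replicate 1, 3 or 4. Pparg was at -0.21 and not called (adjusted p = 0.206 by limma), but passed with the leukocyte covariate (-0.31, adjusted p = 0.0105).

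Of 29 genes listed as possible transcriptional regulators of surfactant genes, 11 fell, 3 rose and 15 were not called, with a median of -0.06. Here too a place on the list does not show such a role. The widest falls were Mitf (-1.60, SE 0.10), a factor of lysosome-related organelles in pigment cells, Etv5 (-1.35, SE 0.14), which maintains type 2 cells, Sox9 (-1.30, SE 0.12), a factor of distal tip progenitors, and Cebpa (-1.21, SE 0.14), which promotes the maturation of type 2 cells. Nkx2-1 itself was level, at 11.16 ± 0.17 and 11.11 ± 0.063 (SD, n = 4, difference -0.05, adjusted p = 0.784 by limma). Foxa1 fell by 0.58 (SE 0.082) and Foxa2 was at 0.19 and not called, but passed with the mesenchymal covariate (0.36, adjusted p = 0.0316). Of the Hippo pathway's effectors, Yap1 was at 0.09 and Wwtr1, which encodes Taz, at 0.18 (adjusted p = 0.0931 by limma), both not called. The 3 regulators that rose were all Tead factors: Tead1 by 0.56 (SE 0.068), Tead4 by 0.37 (SE 0.0675) and Tead2 by 0.29 (SE 0.061). Tead3 was at 0.12 and not called. Only Tead1 of these was examined in the alternative settings. Wwtr1 passed after quantile normalization and with the leukocyte covariate. Of 28 other markers of type 2 cells 27 fell, with a median of -1.30, and Cd74 was at -0.33 and not called (adjusted p = 0.168 by limma), but passed with knockout replicates 1 and 4 left out (-0.55, adjusted p = 0.0382). That list shares 6 genes with lipid supply, Cd36, Fabp5 and Lpcat1 among them, and Etv5 with the regulators, and it was drawn up with these results known.

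**Figure D5:**
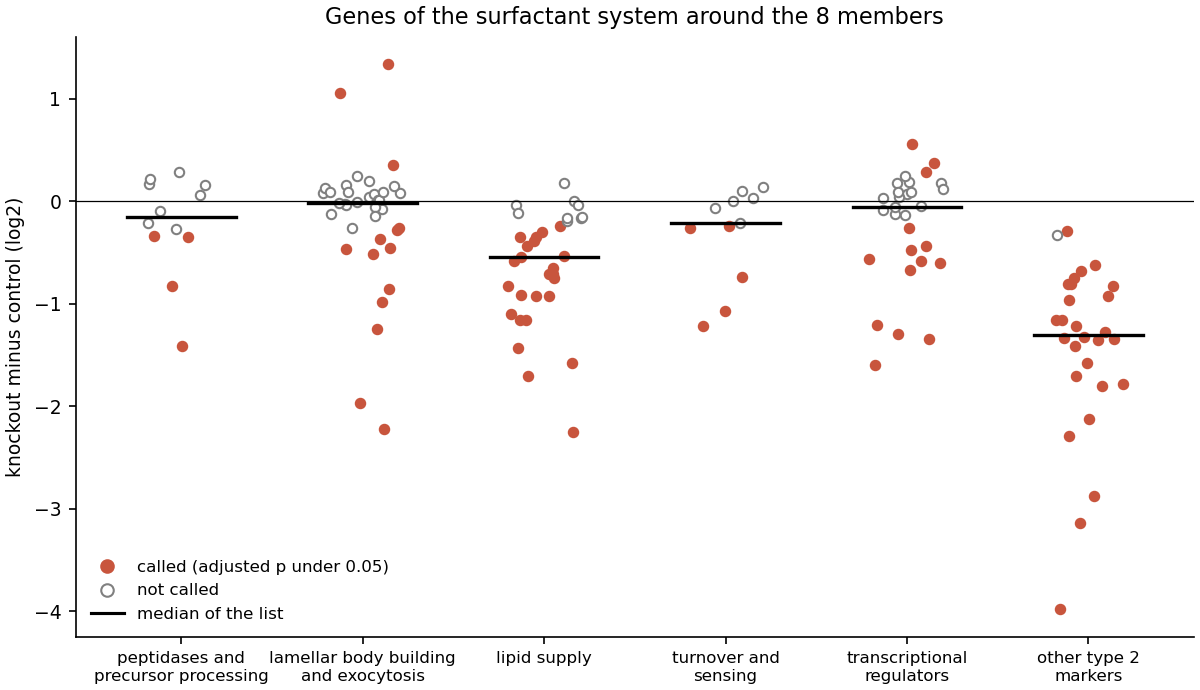
Difference knockout minus control (log2, vertical axis) of each measured gene of 6 lists, filled where called and open where not, with a bar at the median of each list. Lipid supply (median -0.55) and the other type 2 markers (-1.30) hold no filled point above zero, while the lamellar body and regulator lists hold filled points on both sides.

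The genes whose profile over the 8 arrays lay nearest to each of the 8 were ranked by the mean absolute distance between centred log2 values, over 9968 other genes above the median level. The measure uses the same arrays as the falls and is a description. Lamp3 lay nearest to Dram1 (0.036), Lgi3 (0.048), the neighbour of Sftpc, and Etv5 (0.060). Abca3 lay nearest to Tmem42 (0.047), Exosc7 (0.051) and Fasn (0.052), the fatty acid synthase. Lyz2 lay nearest to Smpdl3b (0.033) and Acaca (0.049), the enzyme before Fasn in the same pathway, and then Dock9 (0.059). Napsa lay nearest to Adgrf5 (0.034), C1galt1 (0.038) and Acly (0.039), the enzyme before Acaca.

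Sftpb lay nearest to Dlk1 (0.026), C1galt1 (0.034) and Dgat2 (0.037). Sftpa1, with its wide knockout spread, lay nearest to Egfl6 (0.085), Dram1 (0.098) and Gsap (0.106), and Sftpd to Ica1 (0.072), Tbc1d30 (0.075) and Lipa (0.076). Sftpc lay nearest to genes that were flat, Ctdp1 (0.021), Rpl10a (0.022) and Actr3 (0.023). Within the group, Sftpb and Napsa were the closest pair (0.043), Napsa ranking 8 among the genes nearest to Sftpb and Sftpb 6 among those nearest to Napsa. Abca3 and Lyz2 (0.087) and Sftpa1 and Lamp3 (0.110) were each other's closest members. The closest member to Sftpc, Sftpd, ranked 9181.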

How the data were processed

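The authors deposited a table of log2 values for 35556 probe sets in 8 single-colour arrays. That the scale is log2 was read from the values, and the sources used here do not give the normalization or its software. Array medians (7.21 to 7.30) and ranked values (at most 0.175 from their mean over arrays) were already alike, so no scaling was added. A change in total RNA per cell would not be seen. Per the labels, each group holds 4 biological replicates, and this number limits the precision.

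Of the probe sets, 21789 have 1 gene symbol in the platform annotation, 1621 have several and 12146 have none given. By gene number, 21698 matched RefSeq (GRCm38.p6), which also gave gene order and promoters, and no probe set coordinates were used. Where a gene had several probe sets (999 genes), the brightest by mean was used. The 19938 genes were tested with lmFit and eBayes of limma 3.58.1 (R 4.3.3), two-sided, without covariates, with Benjamini-Hochberg adjustment over all genes and a threshold of 0.05. The script was tested on simulated data. Permutation tests used scipy 1.17.1.

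The 8 genes, the lists, the tests and the 19 alternatives were chosen with earlier results of these data known. Genes named by rule were the 8, Stk4, Yap1, Wwtr1, the 4 widest called and the 1 uncalled gene of smallest p in each surrounding list except the other type 2 markers, the 2 widest relatives in each family and the 3 nearest profiles. Any other gene was named after its values were seen. Members with no probe set of a single symbol were not analysed here.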

Additional observations from a re-analysis of the deposited data

Results flagged for a closer look

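In groups of 4 arrays, the gap of the highest or lowest array to its nearest neighbour was compared with the group's range by Dixon's test at the 95% level. Of 216 groups (108 genes in 2 groups) 8 stood out, and chance alone gives about 1 in 20. None belonged to the 8 surfactant and lamellar body genes. Control replicate 2 stood apart for Stk4 (9.84), Ctsb (11.52) and Ica1 (9.72), and control replicate 1 for Atoh8 (9.23). Knockout replicate 4 stood apart for Lipa (9.09) and Mat1a (7.53), knockout replicate 1 for Olfr170 (6.08) and knockout replicate 2 for Cpsf6 (9.89), the gene beyond Lyz1.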

How the results depend on the processing

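The 19 alternatives were a replicate block, median centring, quantile normalization, a filter at the median level, 2 other rules for probe sets, an intensity trend, array weights, the mesenchymal or leukocyte mean as covariate, knockout replicates 1 and 4 left out together, and each array left out in turn. The 7 genes called lower stayed called in all 19 (adjusted p up to 0.0368) and Sftpc in none (adjusted p 0.443 to 0.922). Differences ran from -1.36 to -0.91 for Sftpa1, -0.78 to -0.60 for Sftpb, -0.78 to -0.59 for Sftpd, -1.12 to -0.89 for Abca3, -1.46 to -1.08 for Lamp3, -0.80 to -0.57 for Napsa, -0.97 to -0.82 for Lyz2 and -0.07 to -0.01 for Sftpc. With the replicate block, 3494 genes were called against 3746, and Napepld (adjusted p = 0.0778) and Yeats4 (adjusted p = 0.0715) among the genes examined lost their calls. Arrays of the same number did not deviate together (correlations 0.06, 0.10, -0.08 and 0.04), while those of different number ran from -0.34 to 0.36. No large effect shared by number was seen, but this cannot show whether the numbers pair the arrays. With the mesenchymal covariate 1859 genes were called, 2 of 12 in peptide processing against 4. The larger lists lost calls too. Called genes were 18 against 24 in lipid supply, 10 against 14 in lamellar body building and exocytosis, and 13 against 14 among regulators. Of the other type 2 markers 24 were called against 27. The count for turnover and sensing was 3 against 5 with that covariate, with median centring, with the median filter and with knockout replicates 1 and 4 left out, and 3 to 4 with single arrays left out. Of the neighbours, 8 were called lower under the median filter against 14, since fewer genes were tested. With the mesenchymal covariate 10 neighbours were called lower. No named gene examined in the alternatives changed direction with a call. Outside the 8, 12 of 64 called genes lost their call in at least 1 alternative and 8 others gained one. After quantile normalization 17 pairs of the 8 genes passed, against 18. Leaving out an array gives the pair tests no usable p. Signals near the top of the range limit what can be said of Sftpc, and of the sizes of the falls of the other bright genes.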
